A study of Mus musculus with 472 samples.

Results

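Npas4 is a transcription factor gene that neurons switch on after calcium entry, and 90 of the patched retinal ganglion cells compared here (22.6%) carried its RNA at 10 CPM or more. CPM are a gene's counts scaled to 1000000 gene counts per cell, and a gene at or above 10 CPM in a cell is called positive in it. All other cells compared had Npas4 below 10 CPM and make up the negative side. Only cells with 3000 or more positive genes were compared, 84.5% of the cells in the series, and the 73 others were left out. Both sides were therefore chosen by measured values, and the Npas4 levels of the sides are a description of that choice.

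Retinal ganglion cells are the output neurons of the retina. All cells came from C57BL/6J mice of 7 to 9 weeks, with no treatment, genotype or time point to set them apart. Each was patched in a flat-mounted retina, recorded during blue and green light spots, and aspirated, and its RNA was amplified by Smart-seq2, which copies whole transcripts and adds no molecular identifiers. The labels name no animal and no recording length per cell, so the series counts as 1 sample: no test was made between cells, and the exact (Clopper-Pearson) 95% intervals cover counting error only.

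In neurons, synaptic input and spiking let calcium enter through NMDA receptors and voltage-gated channels, and kinases then act on factors already bound at immediate early genes, such as CREB and SRF. Fos, Fosb, Egr1 and Nr4a1 belong to these genes and respond to many signals, whereas Npas4 is known for responding mainly to calcium. NPAS4 protein binds DNA with an ARNT partner, and its targets in forebrain neurons include Bdnf. Slower genes that encode secreted and synaptic proteins follow the rapid factors.

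The promoters of 7 genes whose values are described here are printed because CREB, the calcium-dependent factor named above, binds the cyclic AMP response element TGACGTCA and its shorter form TGACG. Each run is the 250 bases before the gene's start in RefSeq on GRCm38.p6, 5′ to 3′ on the gene's strand. Capitals mark TGACG, its reverse complement CGTCA, or both overlapping in TGACGTCA.
Npas4, chr19:4989972-4990221, minus strand: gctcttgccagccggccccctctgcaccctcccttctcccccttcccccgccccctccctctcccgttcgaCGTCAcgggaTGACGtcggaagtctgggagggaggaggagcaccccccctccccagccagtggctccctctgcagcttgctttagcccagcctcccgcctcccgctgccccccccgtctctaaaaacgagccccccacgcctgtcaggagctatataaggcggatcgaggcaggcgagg
Fos, chr12:85473640-85473889, plus strand: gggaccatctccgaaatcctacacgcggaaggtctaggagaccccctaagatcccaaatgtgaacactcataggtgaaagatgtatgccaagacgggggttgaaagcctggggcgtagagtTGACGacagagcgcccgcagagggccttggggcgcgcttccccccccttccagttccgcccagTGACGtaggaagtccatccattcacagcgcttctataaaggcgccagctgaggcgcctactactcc
Fosb, chr7:19310046-19310295, minus strand: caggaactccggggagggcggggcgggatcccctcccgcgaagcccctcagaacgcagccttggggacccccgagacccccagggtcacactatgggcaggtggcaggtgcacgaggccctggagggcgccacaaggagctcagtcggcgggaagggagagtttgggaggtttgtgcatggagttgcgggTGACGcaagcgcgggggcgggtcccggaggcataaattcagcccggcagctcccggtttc
Nr4a1, chr15:101266596-101266845, plus strand: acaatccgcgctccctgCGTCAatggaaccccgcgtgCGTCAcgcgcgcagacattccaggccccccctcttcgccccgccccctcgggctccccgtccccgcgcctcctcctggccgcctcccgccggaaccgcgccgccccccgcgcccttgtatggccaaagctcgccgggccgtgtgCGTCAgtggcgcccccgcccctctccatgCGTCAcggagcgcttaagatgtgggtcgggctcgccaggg
Dusp1, chr17:26508473-26508722, minus strand: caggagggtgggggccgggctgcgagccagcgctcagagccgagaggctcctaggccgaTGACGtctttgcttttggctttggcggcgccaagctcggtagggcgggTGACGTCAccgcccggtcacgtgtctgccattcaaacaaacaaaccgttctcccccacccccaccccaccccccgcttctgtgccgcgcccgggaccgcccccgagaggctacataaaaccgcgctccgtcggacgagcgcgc
Plk2, chr13:110394794-110395043, plus strand: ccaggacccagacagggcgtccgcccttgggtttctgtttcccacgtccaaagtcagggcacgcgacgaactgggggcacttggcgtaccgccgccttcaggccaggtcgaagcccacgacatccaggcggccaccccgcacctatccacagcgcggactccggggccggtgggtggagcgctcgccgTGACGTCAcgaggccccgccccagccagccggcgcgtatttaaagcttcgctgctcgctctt
Scg2, chr1:79440027-79440276, minus strand: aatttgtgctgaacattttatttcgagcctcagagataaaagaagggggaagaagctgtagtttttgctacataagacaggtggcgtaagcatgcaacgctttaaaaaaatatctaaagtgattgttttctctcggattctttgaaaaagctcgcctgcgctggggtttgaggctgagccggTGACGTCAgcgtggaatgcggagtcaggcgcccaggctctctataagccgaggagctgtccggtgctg

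The Npas4 promoter held 2 copies of the short element. Fos had 2 copies, the nearer at 66 bases before the start, Fosb 1 at 60 bases, and Nr4a1 4, the nearest at 40 bases. The full element was in the Dusp1, Plk2 and Scg2 windows. Among 27025 RefSeq promoters of the same length, 17.86% held the short element on either strand and 1.624% the full one, which contains the short one on both strands. Of the 21 rapid transcription factor genes with a promoter in the table, 15 held the short element (71.43%) and 1 the full one. The short element was in 8 of 22 promoters of rapid effector genes, 3 of 14 of feedback inhibitor genes and 3 of 9 of late response genes. Among lists outside the activity response, it was in 7 of 18 stress and injury genes, 3 of 9 clock genes and 4 of 13 excitatory receptor and channel genes. It was also in 6 of 26 ganglion cell class markers, 3 of 19 calcium and CREB signalling genes and 1 of 9 partners and relatives of Npas4. The shares of these outside lists lay below that of the rapid transcription factors. All these counts are matches of letters, and no binding was measured. Promoters on chr18, where Egr1 lies, were left out of all these counts. Arc and Ier2 have no entry in the table used.

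On the positive side, Npas4 ran from 10.4 to 423.7 CPM with a median of 53.9 CPM. Its quartiles were 27.1 and 91.2 CPM, and 17 of the 90 cells had 100 CPM or more. The lowest positive cell rested on 29 counts and the median cell on 304.5. On the negative side, 83.8% of cells had no Npas4 count and 50 cells had a value above 0. The values nearest the threshold were 6.98, 8.55 and 9.34 CPM below it, and 10.4, 11.4 and 12.3 CPM above it, so the sides adjoin without a gap. No cell type that should lack Npas4 was set beside these shares. Npas4 lies on mm10 at chr19:4984355-4990316, minus strand, and overlaps no other gene of GENCODE release M21.

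Npas4-positive cells made up 22.56% of the cells compared (95% interval 18.55% to 26.98%). The cells were grouped by library name into 5 sets called runs A to E, and all 5 held some. Runs A, D and E were read from a flow cell and lane. Runs B and C were read from an order number, so they need not each be a single sequencing run. Run A held 44 of the positive cells, which were 20.95% of its cells. Run B had 18 of 85 cells (21.2%), run C 14 of 56 (25%), run D 9 of 30 (30%) and run E 5 of 18 (27.8%), and the intervals of all 5 overlap. Median Npas4 in the positive cells ran from 29.3 CPM in run D to 88.7 CPM in run E. The share moved with the number of positive genes per cell. It was 14.2% in cells with 3000 to under 5000 positive genes (15 positive cells), 23.2% from 5000 to under 6000 (26 positive cells), and 27.1% at 6000 or more (49 positive cells).

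Both sides had ganglion cell RNA. Of 12 listed pan-ganglion-cell genes, positive cells carried 7 to 12 and negative cells 1 to 12, with a median of 10 on both sides. Rbpms, a defining ganglion cell marker, was positive in all 90 Npas4-positive cells and in 94.5% of the negative cells. Gene counts had a median of 5472353 in positive and 5263423 in negative cells, and positive genes a median of 6141 and 5767. RNA of other retinal cells was common on both sides. At least 3 markers of rods, cones, bipolar or amacrine cells were positive in 68 of 90 positive cells (75.6%) and in 74.8% of negative cells. For bipolar cells, all 8 markers were found, and their summed level ran from 0 to 1687 CPM with a median of 83.2 in positive cells, against 0 to 2529 CPM with a median of 86.8 in negative cells. Microglial RNA differed more: no positive cell and 16 negative cells had 3 or more of 7 markers, the summed level reached 98.2 CPM and 4204 CPM, and Tmem119 was at 0 in every positive cell. The haemoglobin genes of red blood cells had lower shares on the positive side in all 5 runs: Hba-a2 was positive in 3.33% and 9.71% of cells, Hbb-bs in 8.89% and 13.3% and Hbb-bt in 1.11% and 6.15%. The part of these cells' RNA in the results was not tested.

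Across genes, Npas4-positive cells had slightly more genes detected, and few single genes stood far from that shift. Shares were compared within each run and averaged with weights that rise with the cells on both sides (run-weighted). A second weighting also compared only cells of the same run and the same band of positive genes (band-weighted). Over the 13278 genes positive in at least 5% of the cells compared, the median run-weighted difference was 2.74 percentage points and 71.5% of genes were higher in Npas4-positive cells. Band-weighted, the median was 0.379 points and 53.6% were higher. A difference of 20 points or more upward was found for 36 genes (0.271%), and downward for 0 (0.0%). Band-weighted, 11 genes were 20 points higher (0.0828%) and 1 was lower (0.00753%), and 10 of the 11 were among the 36.

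**Figure D1:**
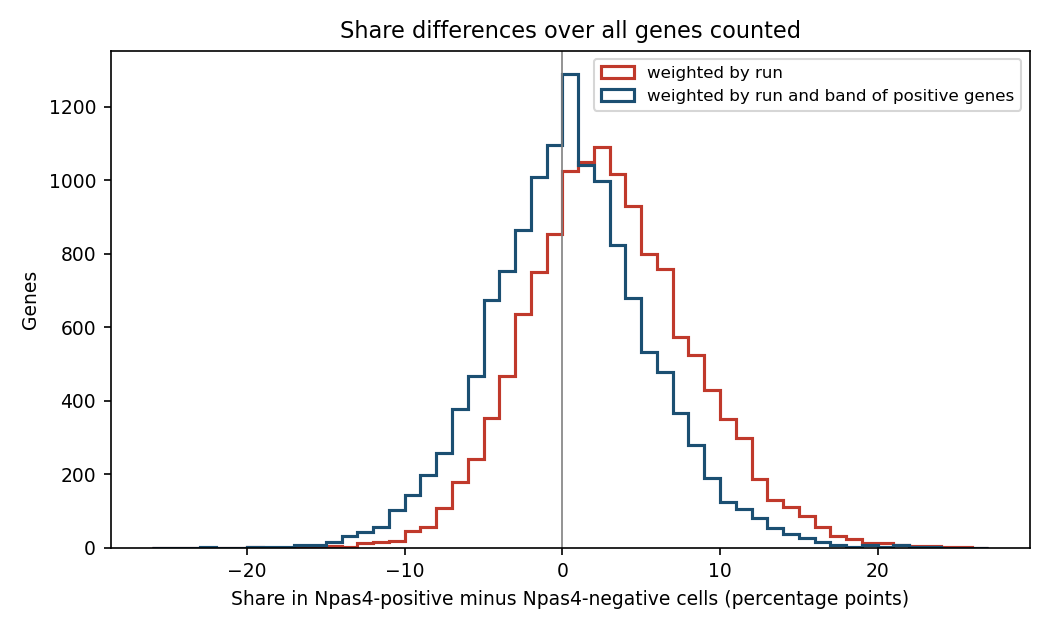
Number of genes (vertical axis) by difference in the share of positive cells, Npas4-positive minus Npas4-negative, in percentage points (horizontal axis), for 13278 genes. The run-weighted distribution has its median at 2.74 points, and the one weighted by run and band of positive genes at 0.379 points.

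The genes of the neuronal activity response were described in 4 lists by role. Of 29 rapid transcription factors, 22 had a higher share in Npas4-positive cells and 7 a lower one, and the median difference was 2.54 points. List medians take in every member, also those positive in under 5% of cells. Of these 29 factors, 20 were among the 13278 genes counted. The median of all genes was 2.74 points over those 13278, and 0.742 over the 22148 genes positive in at least 1 cell. With 1 CPM as the threshold the rapid factors' median was 5.85, and that of genes positive in at least 5% of cells was 3.26. Of 26 rapid effectors, 17 were higher, 8 lower and Ptgs2 was positive in no cell (median 2.79 points). Of 18 feedback inhibitors 12 were higher (median 4.63 points), and of 14 late response genes 9 were higher (median 1.69 points). Of the 13278 genes, 71.5% were higher, and the majorities in the 4 lists were of about that size. Counts of members past a given size take only those among the 13278 genes. At 10 points or more upward lay 9.99% of all genes. At that size were 7 of 20 rapid factors, 6 of 24 effectors, 1 of 16 inhibitors and 2 of 12 late genes. No member was 10 points lower (0.437% of all genes). At 15 points upward (1.89% of all genes) there were 3 rapid factors (Ier2, Nr4a1 and Fosb), 1 effector (Rnd3), 0 inhibitors and 0 late genes, and at 15 points downward (0.0226%) there was no member. In mean log2(CPM + 1), a difference of 1 or more upward (0.61% of all genes) was found for the same 3 factors, Rnd3, the inhibitor Dusp1 and the late gene Scg2. Band-weighted, 4 factors (these 3 and Egr4) and 3 effectors (Rnd3, Plk2 and Fbxo33) were 10 points higher, as were 3.6% of all genes, and no member was 10 points lower (2.06%). Egr4, also among the 7 run-weighted, was below 5% in negative cells, so it passed that filter only through the positive side. Run-weighted, the medians of the 4 lists thus lay on either side of the 2.74 points of the 13278 genes. All 4 were above the 0.742 of the 22148 genes. A subset of rapid factors and effectors was past 10 points. A single cell carried a median of 11 rapid factors on the positive and 9 on the negative side, 9 and 7 effectors, and 5 and 5 of both the inhibitors and the late genes.

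**Figure D2:**
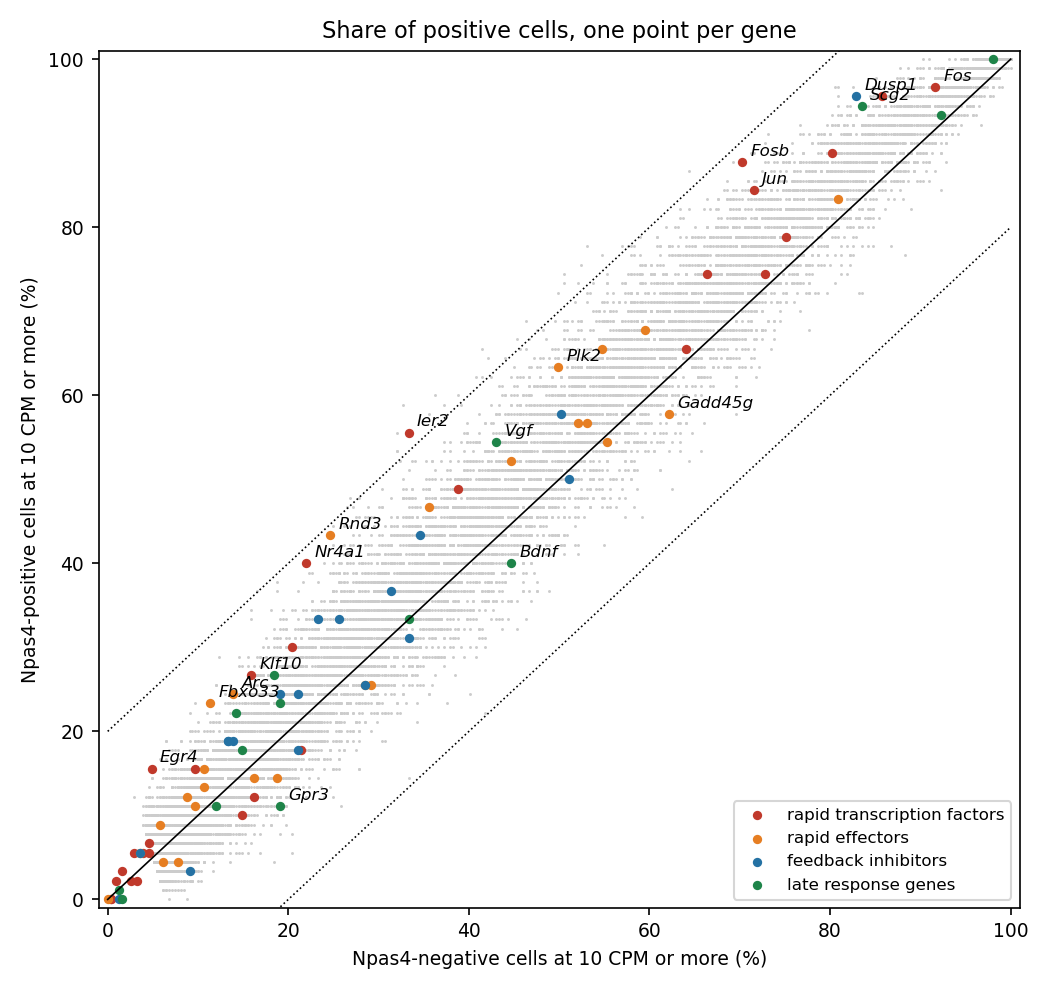
Share of Npas4-positive cells (vertical axis, %) against share of Npas4-negative cells (horizontal axis, %) with each gene at 10 CPM or more, one grey point per gene and coloured points for the 4 activity lists. The solid line marks equal shares and the dotted lines a difference of 20 points without weighting; Ier2 lies beyond the upper one, and Rnd3, Nr4a1 and Fosb lie just inside it.

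Among the rapid transcription factors, Fos itself was nearly universal and differed in level more than in share. FOS pairs with JUN proteins to form AP-1. In positive cells Fos ran from 0 to 2940 CPM with a median of 679, and in negative cells from 0 to 3877 CPM with a median of 438.6. The ranges overlap almost wholly, with the positive side shifted up over all cells compared. In run E alone, the median of Fos was lower in positive than in negative cells. Fos was positive in 96.7% and 91.6% of cells, 5.12 points apart run-weighted. Its share was higher in 4 runs and lower in run C (-11.9 points). Mean log2(CPM + 1) was 9.07 (SD 1.92, n = 90) and 8.08 (SD 2.63), a run-weighted difference of 0.99 against a median of 0.13 over all genes. By that measure Fos was number 86 of 13278 genes. Fos lies at chr12:85473890-85477273, plus strand.

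Fosb showed the clearest shift among the AP-1 genes in both measures. Its median was 90.6 CPM (0 to 569) in positive cells and 43.3 CPM (0 to 904) in negative cells. Fosb was positive in 79 of 90 cells (87.8%, interval 79.2% to 93.7%) and in 70.2% of negative cells (64.8% to 75.3%). The run-weighted difference was 17.2 points and the band-weighted one 16.3, and the share was higher in all 5 runs, by 13.3 to 25.5 points. In mean log2(CPM + 1) the difference was 1.45, number 5 of all genes. The sides still overlap, since 11 positive cells were below 10 CPM. The other AP-1 members moved less. Jun was positive in 84.4% and 71.5% of cells, 12.8 points run-weighted and 8.57 band-weighted, and lower by 16.7 points in run C. Junb was positive in 78.9% and 75.1%, Jund in 65.6% and 64.1%, and Fosl2 in 6.67% and 4.53%.

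Ier2, a rapid nuclear response gene, was the only one of the 29 factors past 20 points. In positive cells it ran from 0 to 495 CPM with a median of 16.97, and in negative cells from 0 to 520 CPM with a median of 0. It was positive in 50 of 90 cells (55.6%, interval 44.7% to 66.04%) against 33.3% of negative cells (28.1% to 38.9%). The median positive cell was thus above the threshold and the median negative cell had no Ier2 count, while the ranges coincide. The difference was 21.6 points run-weighted and 19.8 band-weighted, higher in all 5 runs but by only 3.17 points in run D and 32.8 in run A. Ier2 lies at chr8:84661331-84662852, minus strand, and overlaps no other gene.

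Nr4a1 encodes an orphan nuclear receptor that is induced within minutes of calcium entry. Its highest values were 743 CPM in positive cells and 1607 CPM in negative cells, and the medians were 0.929 and 0 CPM. Positive for Nr4a1 were 36 of 90 cells (40%, interval 29.8% to 50.9%) and 68 negative cells (22.01%, 17.5% to 27.05%). Most cells of both sides were thus below 10 CPM, and the single highest Nr4a1 value was in an Npas4-negative cell. The difference was 17.4 points run-weighted, 16.4 band-weighted and above 0 in all 5 runs (9.87 to 52.3 points, the last in run E with 5 positive cells). The relatives Nr4a2 (2.22% and 2.59%) and Nr4a3 (5.56% and 3.88%) were rare on both sides.

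The EGR factors, zinc finger proteins of the same early wave, divided by abundance. Egr1 was positive in 88.9% and 80.3% of cells, with medians of 161.7 and 114.8 CPM, 8.88 points run-weighted and 8.24 band-weighted. It was higher in 4 runs, and lower by 32.3 points in run E. Egr4 was scarce but was positive in 14 of 90 cells (15.6%, interval 8.77% to 24.7%) against 15 negative cells (4.85%, 2.74% to 7.88%), 10.9 points run-weighted and 11.6 band-weighted. Egr2 was found in 2.22% and 0.971%, and Egr3 in 3.33% and 1.62%. Klf10 was 10.5 points higher, Bhlhe40 10.0, Nfil3 9.80 and Btg2, which restrains cell division, 9.42. The 7 rapid factors with a lower share were Fosl1, Nr4a2, Klf2, Maff, Myc, Crem and Srf, of which Srf was lowest at -5.36 points.

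**Figure D3:**
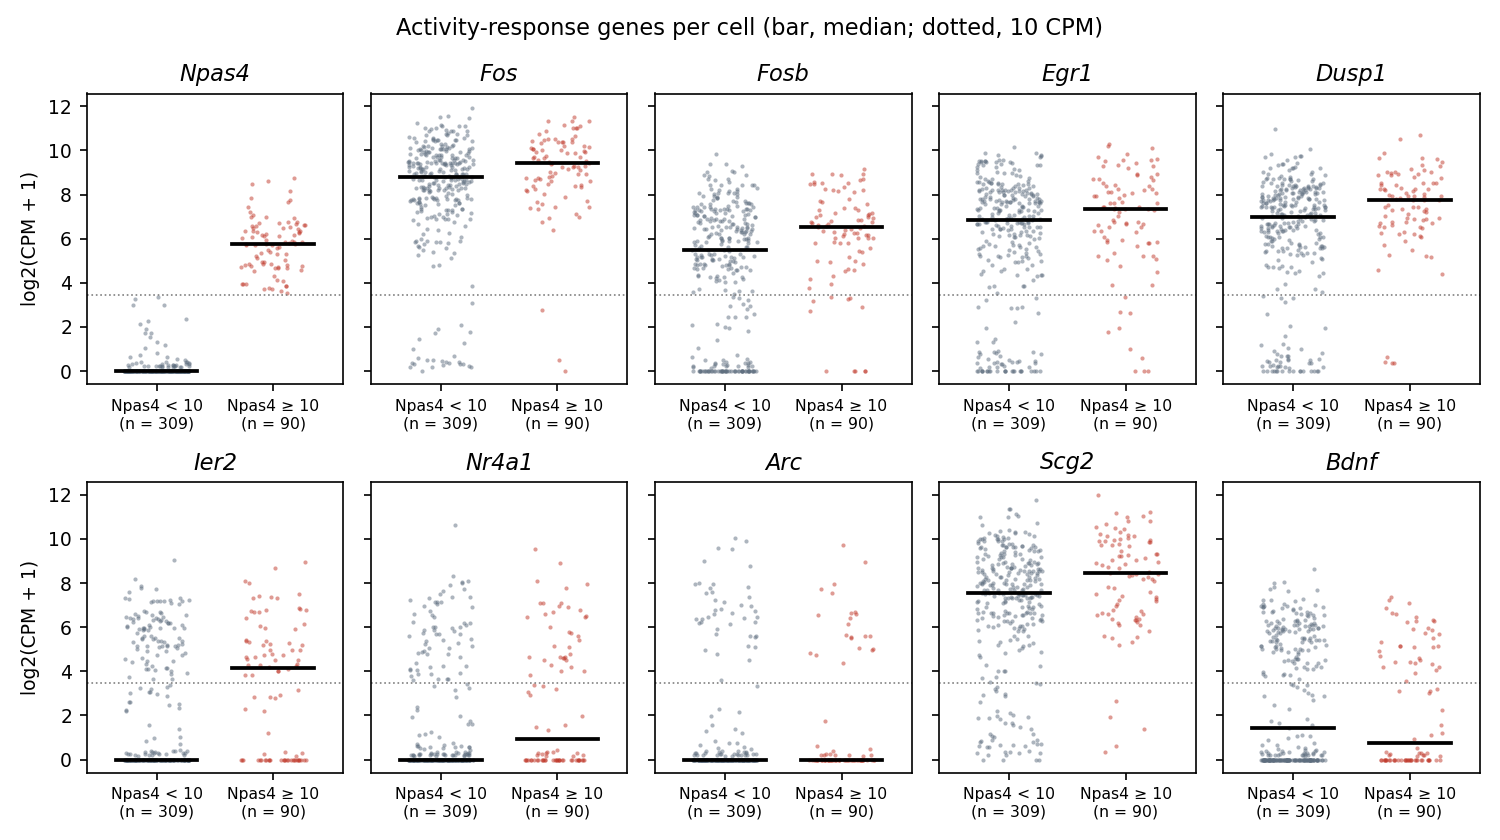
Level of 10 genes in each cell as log2(CPM + 1) (vertical axis) for the Npas4-negative cells and the 90 Npas4-positive cells. Each point is a cell, the bar is the median and the dotted line is 10 CPM; the Npas4 panel shows the split itself, and in each of the other panels the 2 clouds cover nearly the same range.

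Of the rapid effectors, Rnd3 stood highest. RND3 is an atypical small GTPase that affects the actin cytoskeleton. Rnd3 ran from 0 to 238.4 CPM with a median of 3.93 in positive cells, and from 0 to 327.1 CPM with a median of 0.293 in negative cells. The gene was positive in 43.3% (interval 32.9% to 54.2%) and 24.6% (19.9% to 29.8%), 18.8 points run-weighted and 16.8 band-weighted. It was higher in 4 runs and lower by 23.1 points in run E. At 100 CPM in place of 10 the Rnd3 difference was 1.39 points, and with 100 CPM for Npas4 as well it was -3.25.

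Arc, whose protein acts in the removal of AMPA receptors from synapses, is among the best known activity genes, and its difference was modest. Arc reached 856 CPM in positive cells and 1050.75 CPM in negative cells, with a median of 0 on both sides. Arc was positive in 22 of 90 cells (24.4%, interval 15.997% to 34.6%) and in 43 negative cells (13.9%, 10.3% to 18.3%), 10.4 points run-weighted. Run D, with 9 positive cells, had the widest gap, at 55.6% and 14.3%, and run E was reversed, at 20% and 23.1%. Runs A, B and C had 27.3% and 16.9%, 11.1% and 10.4%, and 14.3% and 4.76%. Most cells of both sides had no Arc count. At 100 CPM the Arc difference was 0.67 points, and with 100 CPM for Npas4 as well it was -0.358.

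Plk2, a kinase that weakens synapses after sustained activity, was positive in 63.3% and 49.8% of cells, with medians of 39.7 and 9.98 CPM (13.1 points run-weighted, 10.6 band-weighted). Fbxo33, a ubiquitin ligase subunit, was positive in 23.3% and 11.3% (11.9 and 12.6 points) and was higher in all 5 runs. Arl5b (11.2 points) and Coq10b (10.8 points) completed the 6 members past 10 points. The synaptic scaffold gene Homer1 was lower, at 14.4% and 18.8%, as were Gadd45g (57.8% and 62.1%) and Trib1 (25.6% and 29.1%).

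Dusp1 was the feedback inhibitor set apart. It encodes a phosphatase that turns off MAP kinases. In positive cells it ran from 0.282 to 1668 CPM with a median of 215.1, and in negative cells from 0 to 2035.5 CPM with a median of 125.25. The share positive was 95.6% (interval 89.01% to 98.8%) and 82.8% (78.2% to 86.9%), so only 4 of 90 positive cells lacked it at 10 CPM. The difference was 12.7 points run-weighted, 9.85 band-weighted and above 0 in all 5 runs. In mean log2(CPM + 1) it was 1.25, number 19 of all genes. The GENCODE gene body of Dusp1, chr17:26505590-26562128 on the minus strand, overlaps 4 genes, including Ergic1 on the opposite strand. Dusp1 and Ergic1 share the bases from 26561489 to 26562128, where reads of the 2 cannot be told apart because the kit does not mark strand; Ergic1 was positive in 78.9% and 67.96% of cells. The MAP kinase inhibitors Spry2 (9.05 points) and Spry4 (8.26 points) were somewhat higher, whereas Dusp6 (-2.45 points), Zfp36 (-2.29) and Rasd1 (-5.12) were lower.

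Of the 14 late response genes, 9 were higher and 5 lower, or 7 and 7 band-weighted. Over all 13278 genes, 71.5% were higher run-weighted and 53.6% band-weighted. Scg2, which encodes secretogranin II, had a median of 346.4 CPM (0.274 to 4040.5) in positive cells and 184.5 CPM (0 to 3467) in negative cells. It was positive in 94.4% and 83.5% of cells and higher in all 5 runs (10.8 points run-weighted, 9.55 band-weighted), and its log2 difference of 1.24 was number 20 of all genes. Vgf, another granin-like precursor, was positive in 54.4% and 43.04% (12.3 and 8.93 points), Pcsk1, a convertase that cuts such precursors, in 22.2% and 14.2%, and Nptx2, a pentraxin that gathers AMPA receptors, in 26.7% and 18.4%. Bdnf had a median of 0.678 CPM (0 to 162.5) in positive cells and 1.74 CPM (0 to 399.3) in negative cells. Bdnf was positive in 36 of 90 (40%, interval 29.8% to 50.9%) and in 44.7% of negative cells (39.03% to 50.4%), -4.48 points run-weighted and -5.75 band-weighted, higher in 2 runs and lower in 3. Bdnf RNA was thus no more frequent in Npas4-positive cells, and the intervals overlap. Gpr3, a receptor that raises cyclic AMP, was the only member of the 4 lists lower in all 5 runs, as were 0.904% of all genes (11.1% and 19.1%, -7.38 points).

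**Figure D4:**
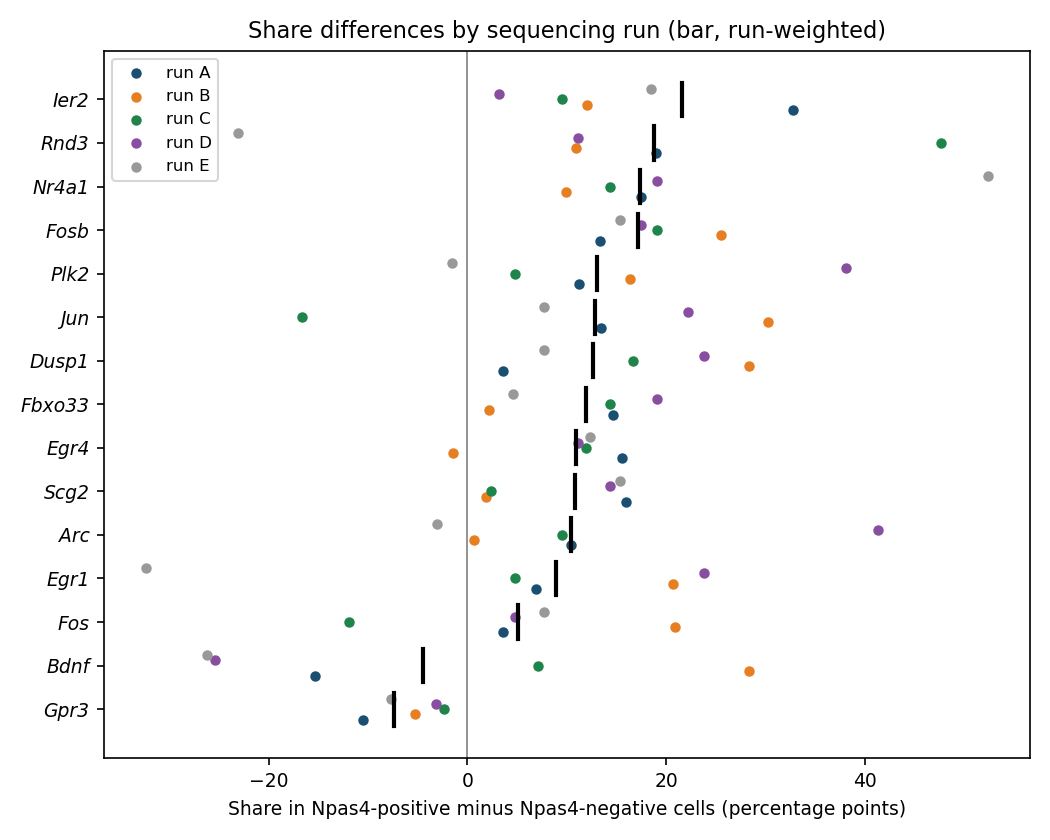
Difference in the share of positive cells, Npas4-positive minus Npas4-negative, in percentage points (horizontal axis), for 15 activity genes. Points are runs A to E, grouped by library name, and the bar is the run-weighted value. Ier2, Nr4a1, Fosb, Dusp1, Fbxo33 and Scg2 are above 0 in all 5 runs, Bdnf is above 0 in 2 and Gpr3 in none.

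Within the Npas4-positive cells, several early genes were graded with the level of Npas4 while others were not. Median Fos was 403.3 CPM in the cells with no Npas4 count, 614.8 CPM in the 50 cells above 0 and below 10 CPM, 488 CPM in the 39 cells from 10 to below 50, 658 CPM in the 34 from 50 to below 100, and 1332 CPM in the 17 cells at 100 or more. The highest class stood apart, and cells just under the threshold were no lower than those just above it. Dusp1 had medians of 110.6, 176.025, 115.8, 254.45 and 431.2 CPM in the same order, Fosb 37.3, 79.98, 64.8, 97.4 and 157.7 CPM, and Egr1 107.9, 155.9, 98.02, 195.1 and 266.1 CPM. Scg2 went from 184.5 and 190.9 CPM below the threshold to 288.6, 330.96 and 853 CPM above it. Its share of positive cells did not rise over the 3 classes above the threshold (97.4%, 94.1% and 88.2%). The number of positive genes had medians of 5747, 6034, 6801, 6014.5 and 5566 in the same order. Over the 3 classes of Npas4-positive cells it was thus lower where the medians of these genes were higher, and its part in them was not tested.

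Ier2, Nr4a1 and Rnd3 were not graded in this way. Ier2 was positive in 32.8%, 36%, 64.1%, 47.1% and 52.9% of cells from the lowest to the highest class, and Nr4a1 in 21.6%, 24%, 46.2%, 35.3% and 35.3%. Rnd3 was highest from 10 to below 50 CPM, at 51.3%, and was 29.4% in the highest class. Bdnf was positive in 43.6%, 50%, 48.7%, 35.3% and 29.4%. Over the 90 positive cells, Spearman's rank correlation with Npas4 was 0.443 for Fos, 0.373 for Dusp1, 0.349 for Fosb and 0.302 for Egr1. For Scg2 it was 0.118. It was -0.006 for Ier2, -0.036 for Nr4a1, -0.056 for Arc and -0.163 for Rnd3. For Fos it was 0.468 in the 44 cells of run A, 0.373 in the 18 of run B and 0.653 in the 14 of run C. These correlations describe cells that share runs and depth, and no test was made.

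**Figure D5:**
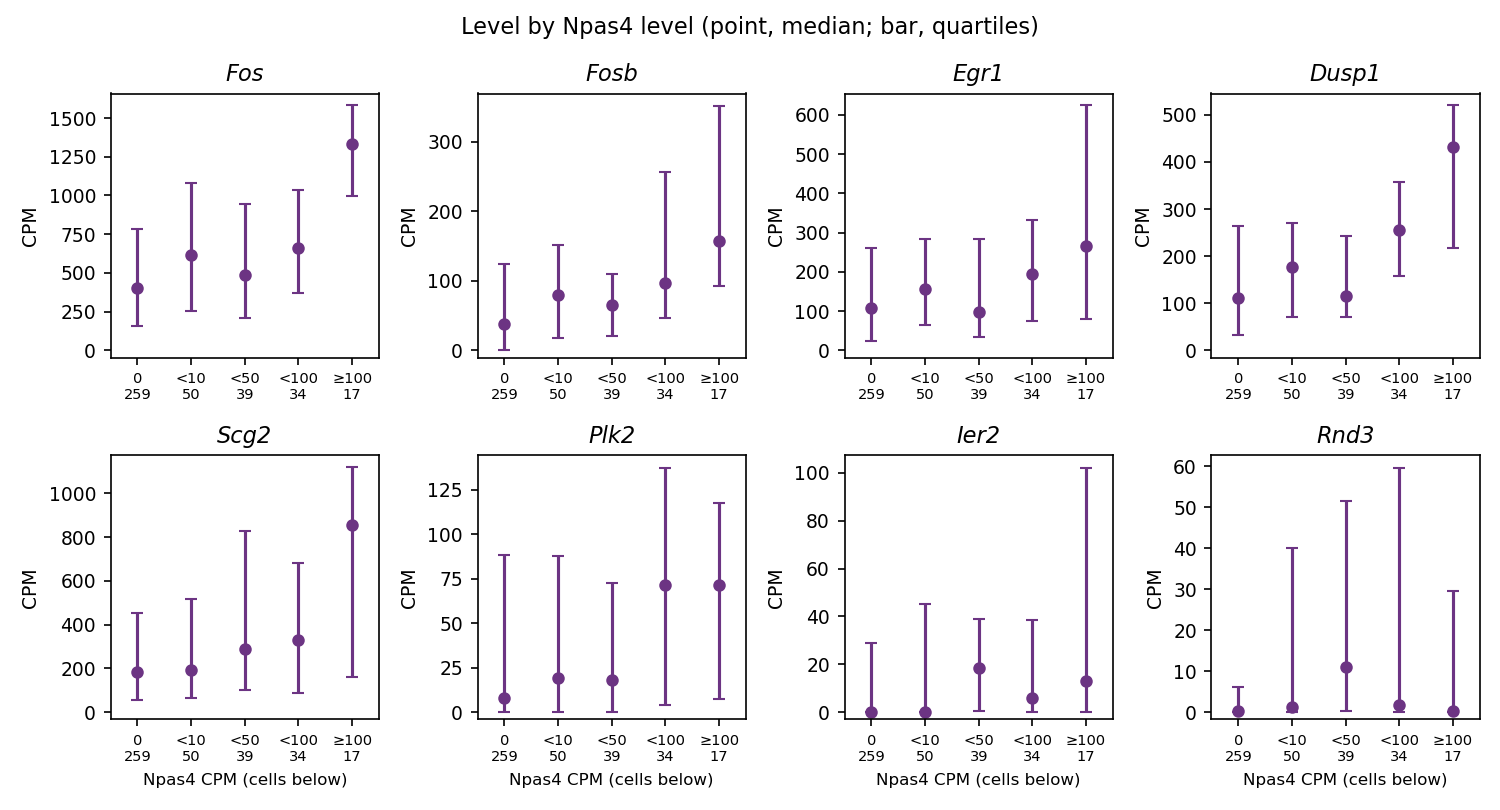
Level of 8 genes in CPM (vertical axis) by Npas4 level in 5 classes (horizontal axis, with the number of cells); points are medians and bars run from the lower to the upper quartile. Fos, Dusp1, Fosb and Scg2 have their highest medians in the 17 cells with Npas4 at 100 CPM or more, and Ier2 and Rnd3 have theirs from 10 to below 50 CPM.

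The 10 genes most like Npas4 over all cells compared, by Spearman's rank correlation of log2(CPM + 1), were led by the same early genes. They were Dusp1 (0.240), Fosb (0.237), Arhgap33 (0.236), Arxes1 (0.234), Fos (0.233), Lmbr1 (0.221), Cacna1c (0.216), Cdh6 (0.214), Fam19a1 (0.212) and 1 gene with a clone name. All are weak, and over the 13278 genes the correlation ran from -0.175 to 0.240 with a median of 0.024. Cacna1c, which encodes the pore of an L-type calcium channel, was positive in 38.9% and 28.2% of cells, 10.95 points run-weighted and 9.38 band-weighted.

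Of the genes around NPAS4 protein itself, its partner Arnt was positive in 45.6% and 35.6% of cells (9.81 points) and the other partner Arnt2 in 26.7% and 30.7% (-4.26 points). Among 12 genes of this family of helix-loop-helix PAS factors, 6 were higher, 4 lower, and Sim1 and Sim2 were positive in no cell (median 0.598 points). Of 27 genes of calcium and CREB signalling, 21 were higher and 6 lower, with a median of 4.48 points, while 71.5% of all genes were higher. Band-weighted, 17 of the 27 were higher (53.6% of all genes) and the median was 1.42 points. Camk4, a nuclear calcium-dependent kinase, was positive in 34.4% and 20.4% (14.1 and 12.2 points) and higher in all 5 runs. Elk4, an SRF partner, was the only member lower by more than 10 points, at 24.4% and 40.1% (-15.3 and -18.2 points). It was lower in 3 of the 5 runs, and 4.76 points higher with 100 CPM for all genes. Of 18 excitatory receptor and channel genes 15 were higher, or 14 band-weighted (median 3.25 points); Grin2a, an NMDA receptor subunit, was positive in 65.6% and 55.02%, 11.02 points run-weighted and 10.1 band-weighted. Among 20 stress and injury genes the median was 0.484 points, or 0 band-weighted. Of the 17 of them among the 13278 genes, 2 were past 10 points, a share like the 9.99% of all genes. They were the chaperone genes Hspa1a (11.5 points) and Hsph1 (11.2). All 10 clock genes were higher run-weighted (median 5.12 points), 8 of them band-weighted (median 2.35 points).

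The 36 genes past 20 points were mostly not members of the activity lists. Ier2 was the only one from these lists, and Fam163a and Cdh6 were from the list of ganglion cell class markers. The leading gene was Arxes1, with medians of 16.5 CPM (0 to 151.5) and 0.125 CPM (0 to 266.8), positive in 58.9% and 32.7% of cells, 25.6 points run-weighted, 21.8 band-weighted and above 0 in all 5 runs. Next came Lmbr1 (77.8% and 53.1%), Krba1 (74.4% and 50.5%), Mettl16, an RNA methyltransferase gene (65.6% and 41.4%), and Arhgap33 (75.6% and 52.4%). Krba1 had the largest log2 difference of all genes counted, 1.62, with medians of 56.2 and 10.8 CPM. Tmem63c, of a family of stretch-activated channels, had the largest band-weighted difference, 23.3 points (55.6% and 32.04%).

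Other genes past 20 points included membrane and synapse genes. Kcnc4, a Kv3 potassium channel subunit, was positive in 72.2% and 49.8% of cells, Gabrb1, a GABA-A receptor subunit, in 53.3% and 32.04%, Clstn2, a synaptic adhesion protein, in 68.9% and 46.3%, and Tnr, an extracellular matrix glycoprotein, in 73.3% and 52.1%. Band-weighted, these differed by 21.9, 19.6, 20.99 and 19.9 points. Jakmip1, Fut8, Enox1, Kctd1, Avl9, Ctdspl2, Zdhhc9, Prr5, Cnnm2, Usp54, Patj, Syncrip and Dnajc16 differed by 20.95 to 23.7 points run-weighted. Of the 36, 28 were higher in all 5 runs (0.211% of all genes, while 8.95% of all genes were higher in all 5 at any size). When other genes were called positive at 100 CPM and Npas4 at 10 CPM, 1 gene, Herc2, was 20 points higher, and Arxes1 was 2.62 points higher.

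No gene was lower by 20 points. Ccdc88b came nearest, with highest values of 137.04 and 375.5 CPM and a median of 0 on both sides. It was positive in 13 of 90 cells (14.4%, interval 7.92% to 23.4%) and in 33.3% of negative cells (28.1% to 38.9%), -19.8 points run-weighted, -22.7 band-weighted and lower in all 5 runs. Elk4 was next among genes with proper names. Srek1ip1, Snhg15, Rps28, Etv1, Psmd9, D17H6S53E, Snapc4, Nectin1, Slc25a28 and Phf8 followed.

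Of 31 listed markers of ganglion cell classes, 22 were higher and 9 lower under both weightings, with a median of 3.62 points, or 2.27 band-weighted. Of the 13278 genes, 71.5% were higher run-weighted and 53.6% band-weighted. At 10 points, 9 of the 29 markers among those genes were higher (9.99% of all genes) and 0 lower (0.437%). Band-weighted, 7 were 10 points higher (3.6% of all genes) and 4 were 10 points lower (2.06%). Cdh6, a cadherin of direction-selective ganglion cells, had a median of 15.5 CPM (0 to 1227) in positive cells and 0.223 CPM (0 to 854) in negative cells. The share was 52.2% (interval 41.4% to 62.9%) and 32.4% (27.2% to 37.9%), 20.6 points run-weighted and 21.3 band-weighted, and higher in all 5 runs. Col25a1, another listed marker of these cells, was positive in 16.7% and 14.9%. Fam163a, in the list as a subtype marker, was positive in 57.8% and 35.6% of cells (22.8 and 21.02 points). Its median was 48.5 CPM (0 to 575.27) in positive and 0.377 CPM (0 to 820) in negative cells, and it was higher in all 5 runs. The log2 differences of Fam163a (1.58) and Cdh6 (1.55) were numbers 2 and 3 of all genes. Adcyap1, the PACAP precursor (15.4 points), Mmp9 (15.1), Hpcal4 (14.8), Cartpt (14.5) and Pcdh8 (13.8) were also higher.

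Of genes known as markers of alpha ganglion cells, Spp1, Kcng4 and Scn4b were lower, while Nefh and Pvalb were within the shift of all genes. Spp1, which encodes osteopontin, had medians of 1.82 CPM (0 to 3578) in positive and 10.0 CPM (0 to 7132) in negative cells. Its log2 difference, -1.08, was the lowest of all 13278 genes. Kcng4 was positive in 24.4% and 31.7% of cells (-6.79 points, -10.4 band-weighted) and at 100 CPM in 3.33% and 17.5%. Scn4b, a sodium channel subunit gene, was positive in 34.4% and 42.7% (-7.18 points, -11.05 band-weighted). Nefh, a neurofilament gene, was higher in all 5 runs, at 87.8% and 81.6% (6.31 points), and Pvalb, which encodes parvalbumin, was at 82.2% and 80.3% (2.67 points). Over all 13278 genes the run-weighted median was 2.74 points and the upper quartile 6.36. Of the transcription factor genes that mark other classes, Irx4 (-8.91 points) and Tbr1 (-7.29) were lower.

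Read from the classes, 17 cells with both Spp1 and Kcng4 were Npas4-positive (16.8% of such cells, interval 10.1% to 25.6%). Of the 48 cells with Col25a1 and Cdh6, 15 were (31.2%, 18.7% to 46.3%), and of those with Mmp9 and Htr1d, 34 were (32.1%, 23.3% to 41.8%). Cells with Opn4 or Eomes had 15 of 67 (22.4%, 13.1% to 34.2%), Tbr1 cells 12 of 76 (15.8%, 8.43% to 25.96%) and Irx4 cells 9 of 67 (13.4%, 6.33% to 23.97%). The intervals of these 6 sets overlap, and 5 of them hold the share of all cells compared, the exception being the set with Mmp9 and Htr1d. The sets share cells, and the part of class makeup in the gene differences above was not tested. In 100 cells without 3 or more rod, cone, bipolar or amacrine markers, 22 of them Npas4-positive, Ier2 was positive in 54.5% and 28.2%, Nr4a1 in 50% and 28.2%, Rnd3 in 63.6% and 19.2%, Dusp1 in 95.5% and 85.9%, and Cdh6 in 50% and 30.8%. In the same cells Fosb was positive in 86.4% and 79.5% and Fos in 95.5% and 94.9%. Jun was at 68.2% and 69.2%, Junb at 77.3% and 75.6%, Egr1 at 81.8% and 78.2% and Arc at 18.2% and 14.1%. Bdnf was lower (40.9% and 53.8%), and Scg2 (95.5% and 83.3%), Plk2 (63.6% and 48.7%) and Btg2 (36.4% and 25.6%) were higher. Of all genes counted in these cells, 6.83% were 20 points higher run-weighted and 0.846% lower.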

How the data were processed

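Single patched retinal ganglion cells were measured by Smart-seq2 RNA sequencing. The table the authors deposited holds estimated counts for 55450 genes and 92 spike-in RNAs in each cell; 1.36% of its values have a fractional part. STAR 2.7.0 and mm10 are named in the submitters' processing notes, and no source used here names the counting tool. Estimated counts were rounded to whole numbers. CPM divide a gene's count by the cell's total over genes alone, times 1000000, and differences in level are on the log2(CPM + 1) scale. A deposited key mapped all 472 cells, and 399 had 3000 or more positive genes (90 Npas4-positive, 309 negative). Runs A to E held 210, 85, 56, 30 and 18 of the 399, and the bands of positive genes 106, 112 and 181, from lowest to highest; 259 negative cells had no Npas4 count. Runs were read from library names (a flow cell and lane, or an order number), and each run's weight was the product of its cells on both sides divided by their sum. Npas4 was left out of every count of genes. All members of the gene lists may be named, with the 25 genes of largest difference upward and 15 downward (clone names counted only) and the 10 genes most like Npas4; Herc2 and Riok3 were named after their values were seen. The 2 sides, their members and all lists were chosen with earlier results of these data known. Libraries without molecular identifiers count amplified reads, so intervals cover counting error only. Cells were picked singly and no doublet caller was run; RNA of other retinal cells was scored by listed markers. All 55450 identifiers are in GENCODE M21, which gave the 1-based mm10 positions. The share difference was tested on simulated data. Software was matplotlib 3.10.9, pandas 2.3.3, scipy 1.17.1 and numpy 2.4.6 under Python 3.11.15. The alternatives are named in the closing section.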

Additional observations from a re-analysis of the deposited data

Results flagged for a closer look

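Data outside the comparison gave 2 signals. Spike-in RNAs, which entered no value above, took a median of 0.632% of all counts in the cells compared, 0.586% in the positive and 0.649% in the negative cells. Among the 73 cells left out for having fewer than 3000 positive genes, 2 were Npas4-positive (2.74%, interval 0.334% to 9.55%). In those 73 cells Fos was positive in 52.1%, Dusp1 in 31.5%, Fosb in 21.9%, Ier2 in 12.3%, Nr4a1 in 10.96% and Arc in 4.11%.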

How the results depend on the processing

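No paired analysis was possible because the cells form 1 group, with no replicate numbers shared between groups. Shares of genes below are percentages of the genes counted under each alternative that were 20 points higher or lower, where the values above are 0.271% and 0%. With 1 CPM as threshold 32 genes were higher, 15 of them among the 36, and the late genes' and rapid factors' medians were 2.47 and 5.85 points. With 100 CPM for all genes, 4.26% of cells were Npas4-positive (17 cells), 4.75% of genes were higher and 2.40% lower, and the inhibitors' median was -0.315; Lmbr1 (-2.53), Enox1 (-9.72), Usp54 (-4.83), Patj (-3.49), Rnd3 (-3.25), Arc (-0.358) and Elk4 (4.76) were among the genes that turned. With 100 CPM for the other genes alone, an alternative added after seeing the data, 0.00753% were higher (Herc2) and 0.00753% lower (Riok3), the inhibitors' and late genes' medians were -0.495 and 0.758, and Avl9 (-1.90), Prr5 (-4.58), Cnnm2 (-0.055), Usp54 (-4.63) and Syncrip (-1.55) were among those that turned. The effectors' median was below 0 at 100 CPM in both forms (-0.495 and -0.441), and -0.00145 with only the cells at 100 CPM as positive; it was 0.766 weighted by run and band, 1.24 with a minimum of 5000 positive genes and 0.185 without cells with markers of other neurons. The rapid factors' median was 5.25 without ribosomal loci and mitochondrial genes, 5.10 without run A and -0.259 with only the cells at 100 CPM as positive. Without a minimum of positive genes, 2.30% were higher, and the rapid factors' and late genes' medians were 7.88 and 5.06. With a minimum of 5000, 0.177% were higher (24 genes, 15 of them among the 36), 0.0222% lower and the inhibitors' median was 1.71. Thinned to 1000000 counts, 27 genes were higher, 21 of them among the 36, and the inhibitors' median was 1.88. With only cells at 0 counts as negative, 0.00756% were lower. With only the 17 cells at 100 CPM as positive, 1.94% were higher, 7.24% lower, and the inhibitors' median was -4.11. Weighted by run and band, 0.0828% were higher, 0.00753% lower, and the inhibitors' and late genes' medians were 1.63 and 0.703. Without cells with 3 or more markers of other neurons (22 and 78 cells), 6.83% were higher, 0.846% lower, the inhibitors' median was 0.774, and Enox1 (-2.86) and Jun (-2.91) turned. Leaving out 1 run at a time gave 0.242% to 2.50% higher (2.50% without run A, 0.483% without run B), 0% to 0.0302% lower, and late medians of 0.907 to 3.35. A rule of 15 points gave 1.89% and 0.0226%, and a log2 rule of 1 gave 0.610% and 0.00753%. With no filter on low genes, 0.163% were higher, the same 36 genes. The causes of these changes were not tested. Fos, Fosb, Egr1, Ier2, Nr4a1, Plk2, Dusp1, Scg2, Cdh6, Fam163a, Arxes1 and Krba1 were above 0 in all 17 alternatives that recompute single genes. Rnd3, Arc and Lmbr1 were above 0 in 16 and Jun in 15. Elk4, lower in the comparison above, was above 0 in 1, and Ccdc88b in 0. These genes were picked for this count, and the alternatives reuse the same cells. The share of all genes above 0 in all 17 was not computed. Of 5423 single-gene values over those alternatives, 7.10% moved beyond the interval of the difference and 12.8% changed sign. Among the 1326 of genes at 10 points or more in the comparison above, 47 changed sign, 10 of them of genes past 20 points.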
